A study of Mus musculus with 15 samples.

Results

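The liver response to 3 days of a ketogenic diet was read from 5 libraries titled as ketogenic diet and 5 titled as chow, which are 10 of the 15 libraries of the study. The other 5 libraries come from mice on a high-fat diet and are set beside the results. Total RNA was taken with Trizol from liver of C57BL/6 mice, an inbred strain with no added genetic change in the labels. Both test diets lasted 3 days and were fed at 12 weeks of age, while the age of the chow mice, sex, food intake and diet composition are not stated in the labels. No label says that each library is a separate mouse, so p values measure the spread between these samples, which may be technical.

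A ketogenic diet supplies almost no carbohydrate. When carbohydrate is withdrawn, insulin is low, fat is released from stores and burned in the liver, and part of it leaves as ketone bodies that feed other organs. Enzymes that build fat from sugar are then in little demand. Nuclear receptors that sense fatty acids, the carbohydrate sensor ChREBP and the sterol-regulated transcription factor SREBP are the textbook controls of this switch.

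Summed estimated counts were 34707597 to 50914494 in the ketogenic libraries and 30190806 to 43688344 in the chow libraries. Levels below are CPM, read counts scaled to a common library size. Differences are log2 values from the fit, ketogenic minus chow. The ± after a log2 difference is a standard error worked back from the difference and its test statistic. Adjusted p values come from edgeR's quasi-likelihood test over all 13967 genes tested. Hepatocyte markers were high in every library. Red cell and platelet markers summed to 340 to 557 CPM on the ketogenic diet against 738 to 1080 on chow, and 7 of 9 tested fell. B and plasma cell markers summed to 20.7 to 34.9 CPM against 28.9 to 47.8, and 6 of 8 fell. None of 11 Kupffer cell, 6 cholangiocyte and 5 neutrophil and monocyte markers passed the test. Over all genes tested 14.6% fell and 30.8% rose or fell. In whole tissue, fewer cells of a type and less RNA per cell cannot be told apart, and the part of these cells in the results below was not tested.

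The response was broad and mostly small. Of the genes tested, 2258 rose (16.2%) and 2038 fell (14.6%), together 30.8%. The 5 ketogenic libraries lay entirely above or below the 5 chow libraries for 22.3% of genes tested, and 21% both did so and passed the test. Among the rises 70.1% were under 1.5-fold, and among the falls 66.3%. At least 2-fold, 258 genes rose (1.85%) and 271 fell (1.94%), and at least 4-fold 49 rose and 58 fell. Abundant genes were called most often: of genes over 1000 CPM 35.5% rose and 27.5% fell, and of those at 100 to 1000 CPM 37.4% rose and 21.0% fell, whereas of genes under 1 CPM 2.04% rose and 7.89% fell. With scaling by total count in place of TMM, rises made up 68.5% of the calls in place of 52.6%.

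The direction followed transcript length as well. Of protein-coding genes with transcripts under 1000 bases 6.50% rose and 25.9% fell, and over 4000 bases 22.9% rose and 9.86% fell. The median differences of these classes were -0.12 and 0.06, and those of the high-fat diet against the same chow libraries were -0.14 and 0.09. With an offset for length fitted to each library, 14.5% of the short class rose and 17.7% fell, against 16.7% and 14.3% of the long class. The offset is fitted to take out such a trend, whatever its source, so the smaller gap follows from the method. A measure of the libraries moved with diet beside the length trend. The ratio of effective to annotated transcript length in the deposited tables was 0.948 to 0.960 on the ketogenic diet, 0.978 to 1.03 on chow and 0.960 to 1.04 on the high-fat diet (ketogenic against chow, two-sided exact permutation test, p = 0.007937, the smallest that 5 against 5 can give). Its part in the length trend was not tested.

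**Figure D1:**
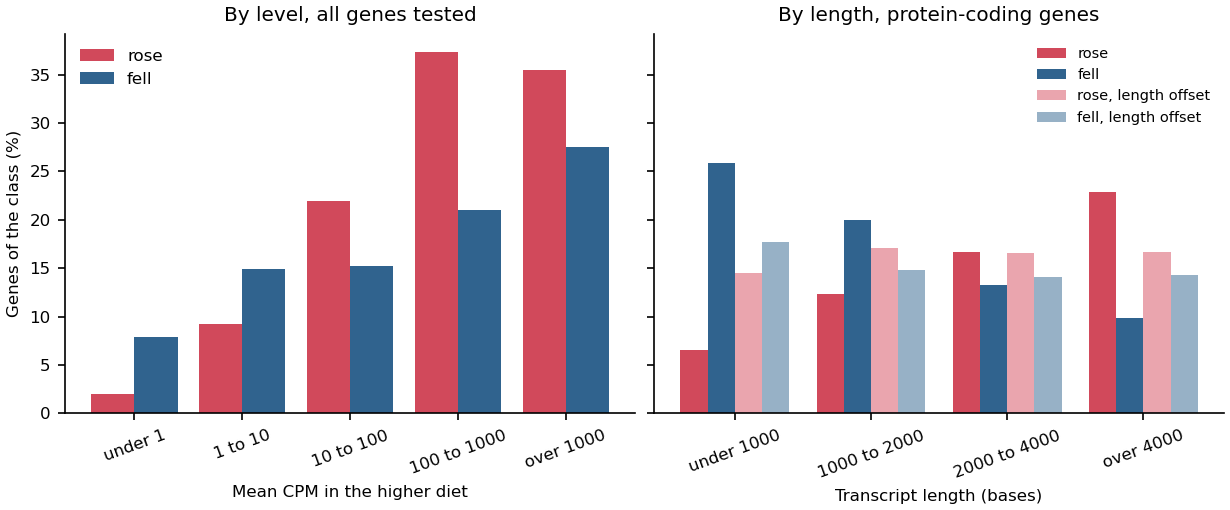
Percent of genes that rose (red) or fell (blue) on the ketogenic diet against chow, by mean CPM in the higher diet (left, all genes tested) and by transcript length in bases (right, protein-coding genes, pale bars with the length offset). Rises reach 37.4% of genes at 100 to 1000 CPM, and the gap between falls and rises under 1000 bases, 25.9% against 6.50%, shrinks to 17.7% against 14.5% with the offset, which is fitted to take out such a trend.

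The ketogenic libraries differed from the high-fat libraries in 3644 genes (26.1% of those tested), with 1826 higher (13.1%) and 1818 lower (13%). The high-fat libraries differed from chow in 2182 genes (15.6%). Of the 258 genes that rose at least 2-fold over chow, 208 were also higher on the ketogenic than on the high-fat diet and 0 were lower. Of the 271 that fell at least 2-fold, 154 were also lower than on the high-fat diet and 2 were higher. These comparisons share the ketogenic libraries, so the counts describe where the high-fat values lie and are no independent evidence.

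Reads were spread over more genes on the ketogenic diet. The most abundant genes that together held 50% of the reads numbered 115 to 141 in ketogenic and 73 to 96 in chow libraries (exact permutation test, p = 0.007937). The major urinary proteins, small pheromone carriers that the liver makes for excretion, took 4.62 ± 0.918% against 10.2 ± 2.57% of reads (SD, n = 5), and mitochondrially encoded genes took 9.81 ± 0.353% against 12.0 ± 0.261%. Serine protease inhibitors, which include abundant plasma proteins, took 2.89 ± 0.249% against 3.98 ± 0.381%. These classes were lower in every ketogenic library than in any chow library. Not every urinary protein gene fell: Mup10 rose by 2.47 (edgeR, adjusted p = 0.00364), with means of 1144 CPM on the ketogenic diet and 207 CPM on chow. Higher in every ketogenic library were apolipoproteins, the protein parts of lipoproteins, with 3.77 ± 0.181% against 3.04 ± 0.168%, cytochrome P450 genes with 3.27 ± 0.581% against 2.35 ± 0.197%, and solute carriers with 1.57 ± 0.0518% against 1.24 ± 0.0731%. Each of these 6 classes had an adjusted p of 0.0115 over 13 classes (exact permutation test). The larger share of cytochrome P450 genes was no rise of the family as a whole. Of its 71 genes tested 22 rose and 22 fell (61.97% called against 30.8% of all genes), and Cyp2e1 alone gained 5628 CPM. Losses were concentrated: the 20 genes with the largest losses in CPM held 73.2% of the summed loss of all genes that fell, and the 20 largest gains held 36.1% of the summed gain.

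Of the 8 genes with the largest gains in CPM, 2 belong to the methionine cycle, which supplies methyl groups. Bhmt, which passes a methyl group from betaine to homocysteine (chr13:93616675-93637961, GRCm38), was at 4417, 6357, 4325, 7486 and 6791 CPM on the ketogenic diet and at 2056, 2487, 2953, 3844 and 1742 CPM on chow. Mat1a, which makes the methyl donor S-adenosylmethionine in hepatocytes (chr14:41105035-41124412), was at 3416, 3917, 3628, 3367 and 3282 CPM against 1778, 1913, 1705, 1904 and 1147 CPM. Neither gene overlapped between the diets. Bhmt rose by 1.17 ± 0.20 (adjusted p = 0.000367) and Mat1a by 1.06 ± 0.12 (adjusted p = 2.11e-06). Bhmt was near its ketogenic level on the high-fat diet, at 5806 ± 343 CPM (SD, n = 5, as for all high-fat levels below; ketogenic minus high-fat 0.02 ± 0.19, adjusted p = 0.958), whereas Mat1a was lower there, at 2505 ± 267 CPM (difference 0.49 ± 0.12, adjusted p = 0.0046). Of further genes of the cycle, chosen after their values were seen, Ahcy, which clears the spent donor, rose by 0.35 ± 0.10 (adjusted p = 0.0103), and Gnmt, which uses the donor to methylate glycine, had a difference of -0.26 ± 0.13 that did not pass (adjusted p = 0.143).

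Cyp2e1, a cytochrome P450 that oxidises ethanol and acetone (chr7:140763739-140774987), gained most in CPM. Its levels were 10750, 11410, 10180, 10200 and 11690 CPM on the ketogenic diet and 5113, 6102, 5678, 4638 and 4568 CPM on chow, a rise of 1.05 ± 0.09 (adjusted p = 8.80e-08). It was at 6938 ± 522 CPM on the high-fat diet, below the ketogenic level by a difference of 0.64 ± 0.09 (adjusted p = 4.38e-05). Selenop, the plasma carrier of selenium, was at 7823, 7717, 8148, 7327 and 7343 CPM against 5195, 5114, 5320, 4576 and 5217 CPM and rose by 0.59 ± 0.07 (adjusted p = 4.61e-06). In both genes all ketogenic values lay above all chow values. Apob, the scaffold of secreted lipoproteins, rose by 0.41 ± 0.07 (adjusted p = 0.000236).

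The largest rises in fold, at 5 CPM or more, were those of Cyp2b9 (7.05 ± 0.86), Mt2 (5.23 ± 0.92), Cidec (4.47 ± 0.40), Lcn2 (4.23 ± 0.65), Cyp2a22 (4.21 ± 0.35), Apoa4 (3.76 ± 0.38) and Mt1 (3.50 ± 0.59), with adjusted p of at most 0.000913. They encode cytochrome P450 copies, metallothioneins, a lipid droplet protein, a protein that binds bacterial iron carriers and an apolipoprotein. The size for Mt2 was 4.46 without ketogenic replicate 4, and that for Cyp2b9 was 7.66 without chow replicate 18. Further down the same order, Mfsd2a, a transporter of lysophosphatidylcholine that carries long-chain fatty acids (chr4:122946850-122961188), was at 200, 229, 308, 164 and 151 CPM against 32.0, 23.2, 36.7, 8.72 and 4.88 CPM, a rise of 3.31 ± 0.47 (adjusted p = 0.000174), with 62.7 ± 9.27 CPM on the high-fat diet. Plin4, a lipid droplet coat protein, was at 27.5, 44.1, 69.6, 40.8 and 46.5 CPM against 4.01, 5.35, 7.68, 5.10 and 4.54 CPM and rose by 3.09 ± 0.33 (adjusted p = 1.62e-05). Slc16a5, a monocarboxylate transporter, rose by 2.65 ± 0.37 (adjusted p = 0.000145). Ciart, a repressor within the clock, was at 2.10, 5.64, 7.47, 6.00 and 7.98 CPM against 1.18, 0.877, 0.722, 0.589 and 0.784 CPM and rose by 2.80 ± 0.34 (adjusted p = 2.04e-05). None of these genes overlapped between the diets, although the ketogenic values of Ciart were spread more than 3-fold. Times of tissue collection are not stated in the labels, and a difference in collection time cannot be told apart from diet.

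The largest falls in fold were those of Scd1 (-6.63 ± 0.46), a desaturase that makes monounsaturated fatty acids, Chrna4 (-5.77 ± 0.72), an acetylcholine receptor subunit, and Adgrf1 (-4.08 ± 0.36), an adhesion receptor. Mup2 (-3.89 ± 0.64), Cyp2c40 (-3.70 ± 0.60), Mup7 (-3.60 ± 0.57) and Cyp2c69 (-3.59 ± 0.59) followed, all from families of similar copies. Adjusted p was at most 0.000592 for these 7 genes, and the difference was -4.65 for Mup2 without ketogenic replicate 6 and -4.50 for Cyp2c69 without ketogenic replicate 2. Among the others of the 14 largest, Gstp1, a glutathione transferase (chr19:4035407-4037985), was at 232, 262, 476, 509 and 389 CPM on the ketogenic diet and at 3173, 2062, 1759, 1666 and 3014 CPM on chow, a difference of -2.64 ± 0.28 (adjusted p = 1.12e-05). It has a near-identical neighbour, so its own value is uncertain. Csad, an enzyme of taurine synthesis (chr15:102176999-102204724), was at 62.0, 52.6, 80.1, 66.3 and 81.3 CPM against 566, 419.7, 426, 432 and 594 CPM (difference -2.83 ± 0.16, adjusted p = 1.41e-08). On the high-fat diet Csad was at 81.6 ± 16.1 CPM, with no difference from the ketogenic level that passed the test (ketogenic minus high-fat -0.25 ± 0.16, adjusted p = 0.252), whereas Gstp1 was at 1539 ± 380.5 CPM. Fabp5, a fatty acid carrier (chr3:10012548-10016607), was at 3.64, 4.01, 5.24, 3.79 and 3.56 CPM against 48.1, 19.8, 17.9, 35.2 and 26.2 CPM (difference -2.87 ± 0.33, adjusted p = 2.77e-05). Npas2, a partner of the clock activator Bmal1, was at 0.567, 0.408, 0.273, 0.874 and 0.903 CPM against 1.33, 3.07, 8.26, 11.6 and 4.84 CPM (difference -3.23 ± 0.67, adjusted p = 0.00271). Neither Fabp5 nor Npas2 overlapped, and the chow libraries of Npas2 were far apart.

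**Figure D2:**
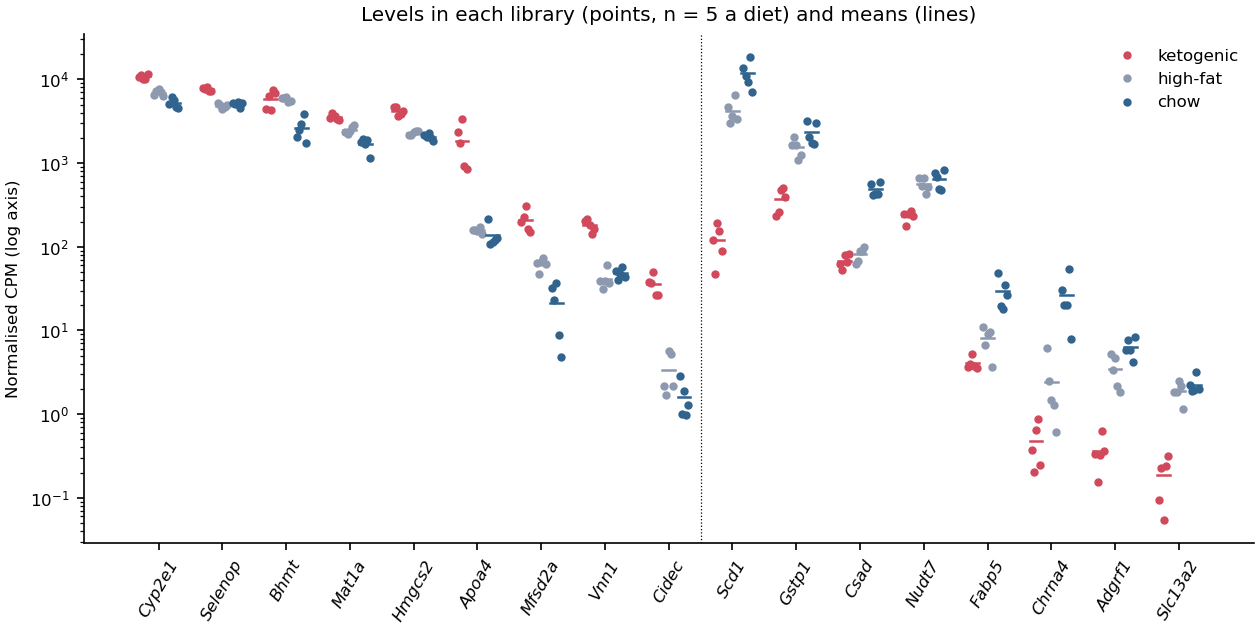
Normalised CPM (log axis) of 17 genes in each library, ketogenic (red), high-fat (grey) and chow (blue), with means as lines; genes left of the dotted line rose and those right of it fell. The ketogenic points lie apart from the chow points in every gene shown, and Bhmt and Csad have high-fat points beside the ketogenic ones.

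Carnitine and coenzyme A are the carriers on which fatty acids enter mitochondria and are burned. In the carnitine list 7 of 10 tested rose and none fell (median difference 0.56; over all genes tested 30.8% were called). Slc22a5, which imports carnitine, was at 59.1, 70.4, 55.0, 44.8 and 45.6 CPM against 24.3, 21.0, 23.7, 22.3 and 17.8 CPM and rose by 1.33 ± 0.11 (adjusted p = 1.62e-07). Bbox1, which completes carnitine synthesis, rose by 0.67 ± 0.08 and the mitochondrial carrier Slc25a20 by 0.74 ± 0.07 (adjusted p = 4.66e-06 and 7.39e-07). Of 15 genes of coenzyme A 7 rose and 2 fell (60% called). Pank3, a kinase that starts its synthesis, rose by 0.62 ± 0.06 (adjusted p = 1.01e-06). Vnn1, which recycles its precursor, was at 202, 213, 180.0, 143 and 164 CPM against 51.9, 39.7, 47.3, 58.0 and 43.4 CPM and rose by 1.91 ± 0.17 (adjusted p = 1.36e-06).

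Both genes of coenzyme A that fell encode hydrolases that break it down. Nudt7, the peroxisomal one, was at 247, 177, 243, 267 and 233 CPM against 753, 677, 496, 477 and 823 CPM (difference -1.47 ± 0.17, adjusted p = 9.05e-06), with no overlap. Nudt8, the mitochondrial one, was lower by less (difference -0.33 ± 0.11, adjusted p = 0.0274) with overlapping libraries, and its call did not survive leaving out any 1 of ketogenic replicates 3 and 4 and chow replicates 15 and 19, total-count scaling or the length offset (adjusted p up to 0.0964). Peroxisome assembly genes had 4 rises and no fall among 16, 25% called against 30.8% of all genes. Pex11a, which drives peroxisome division, rose by 1.35 ± 0.11 (adjusted p = 5.43e-08), and Pex19, a chaperone of peroxisomal membrane proteins, by 0.54 ± 0.06 (adjusted p = 4.89e-06).

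The targets of the carbohydrate sensor ChREBP did not move as a block. Of 20 listed 11 fell and 5 rose (80% called against 30.8% of all genes). The falls with the smallest p were those of the lipase gene Pnpla3 (difference -5.57 ± 0.38, adjusted p = 1.49e-08), of Mlxipl, which encodes ChREBP itself (-1.22 ± 0.11, adjusted p = 2.22e-07), and of Pklr, the liver pyruvate kinase (-1.48 ± 0.16, adjusted p = 7.46e-06). A smaller one was that of Gckr, the regulator of glucokinase (difference -0.59 ± 0.08, adjusted p = 2.94e-05). Txnip, which limits glucose uptake, was at 76.3, 72.2, 73.0, 58.4 and 71.5 CPM against 43.9, 39.5, 56.1, 33.3 and 36.9 CPM and rose by 0.74 ± 0.16 (adjusted p = 0.00215). Slc2a2, the glucose transporter of hepatocytes, rose by 0.48 ± 0.10 and Slc37a4, which brings glucose 6-phosphate to its phosphatase, by 0.41 ± 0.10 (adjusted p = 0.000866 and 0.00462). Rgs16, a regulator of G protein signals, rose by 2.80 ± 0.84 (adjusted p = 0.0239) with overlapping libraries. That call did not survive leaving out any 1 of ketogenic replicate 4 and chow replicates 15, 16, 18 and 19 (adjusted p = 0.0501 to 0.0668).

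Membrane lipid genes were mixed. Of 30 genes of ceramide and sphingomyelin metabolism 9 rose and 4 fell (43.3% called against 30.8% of all genes). Kdsr, an early step of ceramide synthesis, rose by 0.60 ± 0.08 (adjusted p = 2.52e-05) and Asah1, which cleaves ceramide in lysosomes, by 0.40 ± 0.06 (adjusted p = 3.98e-05). Sgpl1, which degrades sphingosine 1-phosphate, fell (difference -0.46 ± 0.06, adjusted p = 8.23e-06). St3gal5, which makes the ganglioside GM3, was at 193, 258, 307, 285 and 352 CPM against 117, 101, 114, 102 and 76.0 CPM and rose by 1.45 ± 0.17 (adjusted p = 1.73e-05). In phospholipid synthesis and remodelling 11 of 36 rose and 6 fell (47.2% called). Crls1, which makes cardiolipin, rose by 0.52 ± 0.09 (adjusted p = 0.000239), and Etnppl, which breaks down phosphoethanolamine, fell (difference -0.95 ± 0.18, adjusted p = 0.00125). Abcb4, which moves phosphatidylcholine into bile, was at 411, 389, 423, 364 and 366 CPM against 183, 184, 216, 188 and 149 CPM and rose by 1.09 ± 0.08 (adjusted p = 3.43e-08). The choline transporter Slc44a1 fell (difference -0.86 ± 0.07, adjusted p = 5.83e-08).

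Among regulators, related genes could move in opposite directions. Of 69 transcription factors of fasting and feeding 20 rose and 6 fell (37.7% called against 30.8% of all genes). Ppara, a fatty acid receptor, was at 151, 143, 163, 135 and 119.5 CPM against 52.3, 54.7, 61.6, 42.6 and 49.4 CPM and rose by 1.45 ± 0.12 (adjusted p = 1.70e-07), while its relative Ppard fell (difference -1.86 ± 0.15, adjusted p = 2.66e-07). Insig2 rose by 1.18 ± 0.13 and Insig1 fell (difference -0.95 ± 0.16), both being anchors that hold SREBP in the endoplasmic reticulum (adjusted p = 3.10e-06 and 0.000473). Of 48 hormone and growth factor receptors 18 rose and 6 fell (50% called). The adrenergic receptor Adra1a rose by 1.11 ± 0.15 and Adra1b fell (difference -0.71 ± 0.08), with adjusted p of 2.02e-05 and 1.37e-06. Scarb1, which takes up cholesterol from high-density lipoprotein, rose by 0.64 ± 0.08 (adjusted p = 1.50e-05), and Sucnr1, the succinate receptor, fell (difference -0.80 ± 0.17, adjusted p = 0.00319). In the list of AMPK, mTORC1 and autophagy control 8 of 48 rose and 5 fell, 27.1% against 30.8% of all genes. Fnip1, a binding partner of AMPK, rose by 0.56 ± 0.08 (adjusted p = 1.80e-05).

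Genes of mitochondrial upkeep rose in 10 of 33 cases and fell in 1 (33.3% called, near the 30.8% of all genes). The 1 was Clpp, a matrix protease whose call was lost in several alternatives (adjusted p 0.00895 to 0.134 over all of them). Bnip3, a receptor for mitochondrial removal, was at 258, 348, 281, 292 and 314 CPM against 201.2, 181, 165, 138 and 159 CPM and rose by 0.82 ± 0.09 (adjusted p = 2.62e-06). Mfn2, which fuses mitochondria, rose by 0.30 ± 0.07 (adjusted p = 0.00182). Of 18 sirtuins and lysine deacetylases Sirt3, the mitochondrial deacetylase, rose by 0.30 ± 0.06 (adjusted p = 0.00112), and 4 fell (27.8% called). Among 41 mitochondrial carriers 13 rose and 7 fell (48.8% called). The aspartate-glutamate carrier Slc25a13 rose by 0.59 ± 0.06 (adjusted p = 4.90e-07). All 250 solute carriers tested gave 73 rises and 34 falls (42.8% called). Slc13a2, a dicarboxylate transporter, was at 0.0546 to 0.317 CPM on the ketogenic diet and at 2.21, 1.87, 1.94, 3.18 and 1.98 CPM on chow (difference -3.53 ± 0.31, adjusted p = 1.30e-07).

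Families of RNA and chromatin proteins differed in direction. Of 20 cytosolic tRNA ligases 7 fell and 0 rose (35% called against 30.8% of all genes), among them Cars, for cysteine (difference -0.45 ± 0.07, adjusted p = 4.74e-05), and Tars, for threonine (difference -0.41 ± 0.06, adjusted p = 9.52e-05). Of 30 splicing proteins of the Srsf and Hnrnp families 13 fell and 2 rose (50% called), with Hnrnpl at a difference of -0.45 ± 0.06 (adjusted p = 9.61e-06). Of 50 RNA helicases 7 rose and 4 fell (22% called), and of 66 translation factors 9 rose and 7 fell (24.2%). Histone genes had 7 falls and 0 rises among 21 (33.3% called), which stands beside the 25.9% falls and 6.50% rises of protein-coding genes with transcripts under 1000 bases. In the endoplasmic reticulum list 10 of 48 rose and 11 fell (43.75% called). Dnajb9, a cochaperone of the unfolded protein response, rose by 1.09 ± 0.15 (adjusted p = 7.92e-05), and the chaperone Calr fell (difference -0.62 ± 0.10, adjusted p = 0.000152).

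In the other lists, of 37 genes of purine and pyrimidine metabolism 9 rose and 3 fell, 32.4% called against 30.8% of all genes. Dpys, a step of pyrimidine breakdown, rose by 0.51 ± 0.06 (adjusted p = 7.10e-06). Of 28 amino acid transporters 5 rose and 3 fell, 28.6% against 30.8% of all genes. The glutamate transporter Slc1a2 rose by 1.04 ± 0.11 (adjusted p = 3.26e-06), and the taurine transporter Slc6a6 fell (difference -0.63 ± 0.09, adjusted p = 4.91e-05). In the cell junction list 5 of 24 rose and 5 fell (41.67% called). Cdh1, which encodes E-cadherin, was at 28.6, 25.6, 47.6, 32.5 and 22.7 CPM against 66.1, 53.0, 53.5, 54.8 and 55.8 CPM (difference -0.85 ± 0.25, adjusted p = 0.0191), and Cdh2, which encodes N-cadherin, rose by 0.34 ± 0.06 (adjusted p = 0.000514). Of 17 genes that human genetics ties to fatty liver or fibrosis 7 rose and 7 fell (82.35% called). Tor1b, a nuclear envelope ATPase, rose by 0.91 ± 0.08 (adjusted p = 1.70e-07), and Tm6sf2, which acts in loading lipoproteins with fat, fell (difference -0.46 ± 0.09, adjusted p = 0.000888) with overlapping libraries.

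**Figure D3:**
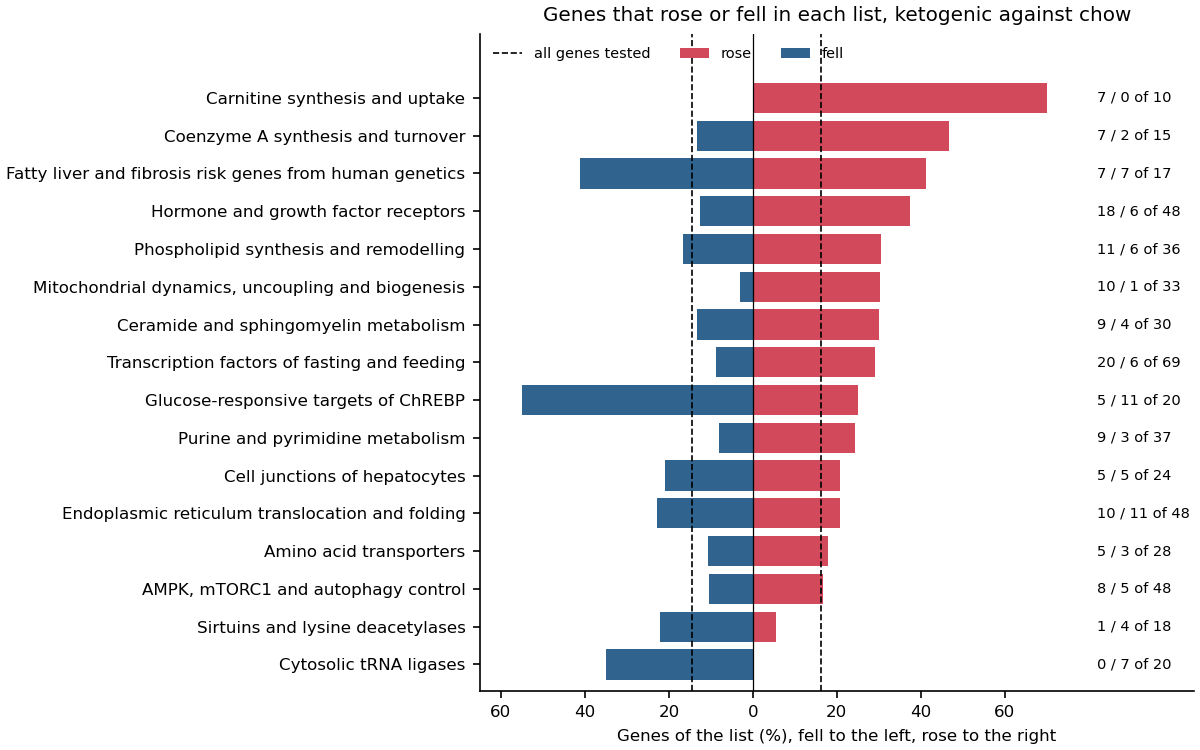
Percent of tested genes that rose (right, red) or fell (left, blue) in 16 gene lists, with counts as rose / fell of tested; dashed lines mark the 16.2% of all genes tested that rose and the 14.6% that fell. The carnitine list reaches farthest to the right with 7 of 10, and the ChREBP targets farthest to the left with 11 of 20.

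Some changes sat side by side on the chromosome. Among genes changed at least 2-fold, runs of 2 to 4 neighbouring tested genes moved the same way. The longest that rose holds the thioesterase genes Acot2, Acot1, Acot4 and Acot3, which release fatty acids from coenzyme A (chr12:83987861-84060402), where Acot3 rose by 2.47 ± 0.40 (adjusted p = 0.000513). The longest that fell holds the acetyltransferase-like genes Nat8f7, Nat8f3, Nat8f6 and Nat8f5 (chr6:85706727-85820972). Both runs are made of similar copies, so reads may be split between neighbours. Rhbdd2, Por and Tmem120a (chr5:135632618-135744448) belong to different families and also rose. Por, the electron donor of cytochrome P450 enzymes, chosen after its values were seen, rose by 1.34 ± 0.15 (adjusted p = 8.68e-06).

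A rule that asked for a minimum of reads in every library of 1 diet and almost none in any of the other found 2 genes. Both had 0 reads in all libraries of the other diet, and genes with fewer reads than the minimum were not counted. Cyp2b13, one of a family of similar copies, had 12.2 to 40.9 reads in each ketogenic library and 0 on chow, at least 38.2-fold higher against a floor of 3 reads over the group. Pnpla5, of the patatin-like lipases, had 58, 23, 32, 75 and 20 reads on chow and 0 on the ketogenic diet, at least 79.1-fold lower there. Its neighbour Pnpla3, of the same family, was at 0.0472, 0.0510, 0.164, 0.0795 and 0.122 CPM on the ketogenic diet and at 5.78, 3.55, 3.67, 7.16 and 2.15 CPM on chow (difference -5.57 ± 0.38, adjusted p = 1.49e-08).

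Because these neighbours fell together, the 250 bases before the start of each are shown 5′ to 3′, from RefSeq on GRCm38.p6, with searched motifs in capitals. The motifs in these windows are CCAAT, the E-box CACGTG that clock factors can bind and the cAMP element TGACGTCA, searched on both strands. Pnpla3 is on the plus strand (chr15:84167566-84167815) and Pnpla5 on the minus strand (chr15:84123176-84123425).
Pnpla3: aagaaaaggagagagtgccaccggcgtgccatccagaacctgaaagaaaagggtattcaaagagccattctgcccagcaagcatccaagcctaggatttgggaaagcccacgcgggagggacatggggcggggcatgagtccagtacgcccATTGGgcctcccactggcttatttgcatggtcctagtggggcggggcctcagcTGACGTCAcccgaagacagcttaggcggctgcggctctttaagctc
Pnpla5: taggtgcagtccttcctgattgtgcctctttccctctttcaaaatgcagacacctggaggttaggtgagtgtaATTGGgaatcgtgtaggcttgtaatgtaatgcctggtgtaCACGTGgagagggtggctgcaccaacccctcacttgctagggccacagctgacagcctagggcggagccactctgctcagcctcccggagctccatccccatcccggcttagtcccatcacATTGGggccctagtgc
The Pnpla5 window holds CACGTG and the Pnpla3 window TGACGTCA, and both hold CCAAT on the opposite strand. Of 13321 protein-coding genes tested, 10459 had a window, in all 13313 windows of 250 bases before and 50 after a start. CACGTG was in 9.41% of these, in 12.4% of those of genes that rose and in 8% of those of genes that fell at least 2-fold. CCAAT was in 37.6%, 36.8% and 47.1%, and TGACGTCA in 2.79%, 1.71% and 2.22%.

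The same letters also stood before genes that moved in opposite directions. The composite site TGATGCAAT, which the stress factor ATF4 can bind with a partner, was in 0.143% of these windows. Among genes changed at least 2-fold it was found in 1 window of a gene that rose, Fgf21, which encodes a fasting hormone, and in 1 of a gene that fell, Angptl8, which encodes a feeding-induced inhibitor of lipoprotein lipase. Fgf21 was at 8.85, 6.61, 14.4, 6.38 and 3.00 CPM against 1.62, 0.484, 0.809, 0.295 and 1.64 CPM and rose by 3.04 ± 0.55 (adjusted p = 0.00105). Angptl8, chosen after its values were seen, was at 3.97, 3.06, 2.62, 9.71 and 4.78 CPM against 20.3, 18.5, 9.50, 29.5 and 67.1 CPM (difference -2.56 ± 0.61, adjusted p = 0.00711), with 1 ketogenic value above the lowest on chow. Capitals mark this site only in the 250 bases before each start (Fgf21, minus strand, chr7:45615491-45615740; Angptl8, plus strand, chr9:21835260-21835509), and the match of Fgf21 is on the opposite strand. Other searched motifs are left unmarked here, and the Fgf21 window also holds the E-box CACGTG.
Fgf21: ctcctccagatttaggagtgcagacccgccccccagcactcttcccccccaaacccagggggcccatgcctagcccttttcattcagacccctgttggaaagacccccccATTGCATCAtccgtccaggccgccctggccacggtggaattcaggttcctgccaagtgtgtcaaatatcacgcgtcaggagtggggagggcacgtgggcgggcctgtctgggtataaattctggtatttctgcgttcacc
Angptl8: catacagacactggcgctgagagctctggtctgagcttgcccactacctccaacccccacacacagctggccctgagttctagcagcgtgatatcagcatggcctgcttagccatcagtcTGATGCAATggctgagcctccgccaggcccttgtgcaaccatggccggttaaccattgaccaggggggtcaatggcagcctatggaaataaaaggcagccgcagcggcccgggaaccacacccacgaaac
A match describes letters and does not show binding.

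Beyond gene totals, the mix of transcripts within a gene changed seldom. Of 7149 genes tested 38 were called (0.532%), where a call needed an adjusted p under 0.05, a shift of at least 10 percentage points in a transcript's share of the gene's reads and no overlap between the diets. Major urinary protein genes, whose copies share reads, made up 6 of these and 5 of the 12 largest shifts (Mup9, Mup2, Mup8, Mup14 and Mup7). Of the other 32, 19 also changed in total and 13 did not pass. In 13 of the 32 the falling transcript starts after the first 30% of the gene, against 1 rising one, and in 13 the rising transcript ends over 500 bases before the falling one, against 1 the other way. A measure of the libraries moved with diet beside this: the mean share of a gene's reads held by transcripts with late starts. It was taken over genes with at least 500 reads, without the urinary protein genes. This mean was 10.7 to 11.0% on the ketogenic diet, 11.7 to 12.0% on chow and 11.4 to 11.7% on the high-fat diet (ketogenic against chow, exact permutation test, p = 0.007937). Its part in the calls was not tested. With only protein-coding transcripts that start in the first 30% of the gene, 16 genes were called, 10 of them among the 38. Of the 16 alternatives counted below, 1 kept the fit and dropped the demands on size and overlap. Every called gene passes that 1 by its design.

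Mat2a, the gene for S-adenosylmethionine synthetase of growing and non-liver cells (chr6:72432799-72439558, minus strand), shifted away from its intron-keeping form. That intron is known to be held back when the methyl donor is plentiful and removed when it is scarce, with METTL16 reading hairpins after the stop codon. The intron-keeping Mat2a-202 took 26.3, 24.2, 16.8, 27.4 and 22.0% of the gene's reads on the ketogenic diet and 35.1, 42.3, 43.1, 40.2 and 44.6% on chow (share adjusted p = 0.0038, edgeR diffSpliceDGE). It took 53.1 ± 6.17% on the high-fat diet, a higher mean than on chow (a difference that was not tested). The spliced Mat2a-201 took 74.0% against 53.8%. The diets did not overlap, and the share was called in 15 of 16 alternatives, not without ketogenic replicate 4. The gene's total rose by 0.61 ± 0.08 (adjusted p = 1.91e-05). Mettl16, chosen after its value was seen, had a difference of 0.03 ± 0.06 (adjusted p = 0.744). The kept intron of 585 bases (chr6:72434396-72434980) meets its exons as follows, with the intron in capitals.
Mat2a upstream junction: tggggtcattgtcagGTAAAGATGGTAAAA
Mat2a downstream junction: ACTTGTATATTCCAGggatctggatctgaa
After the stop codon the spliced transcript holds the letters TACAGAGAA 5 times and TACAGAAAA 1 time, the core of the known METTL16 hairpins.

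Coq8a, a kinase-like protein needed to make coenzyme Q (chr1:180165238-180199602, minus strand), shifted between starts. Coq8a-217, which starts at 180193485, took 16.8, 33.2, 23.9, 26.4 and 27.2% of the gene's reads on the ketogenic diet and 37.5, 40.8, 50.9, 49.1 and 52.2% on chow (share adjusted p = 0.0459, diffSpliceDGE). Coq8a-201 starts 2535 bases upstream, has a coding sequence of the same length (1935 bases) and took 42.6% against 27.1%. The gene's total was at 177, 167, 149, 209 and 206 CPM against 333, 364, 370.2, 404 and 265 CPM (difference -0.94 ± 0.11, adjusted p = 5.38e-06). Neither the share nor the total overlapped, but the share was called in only 5 of 16 alternatives. The 250 bases before each start are shown because the starts differ, with searched motifs in capitals (Coq8a-201, chr1:180196021-180196270; Coq8a-217, chr1:180193486-180193735; both minus strand, RefSeq, GRCm38.p6).
Coq8a-201 start: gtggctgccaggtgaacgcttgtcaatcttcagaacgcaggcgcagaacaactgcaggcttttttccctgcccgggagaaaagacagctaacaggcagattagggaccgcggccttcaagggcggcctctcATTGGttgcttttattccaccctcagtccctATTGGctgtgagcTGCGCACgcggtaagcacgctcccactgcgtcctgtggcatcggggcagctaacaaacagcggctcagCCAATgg
Coq8a-217 start: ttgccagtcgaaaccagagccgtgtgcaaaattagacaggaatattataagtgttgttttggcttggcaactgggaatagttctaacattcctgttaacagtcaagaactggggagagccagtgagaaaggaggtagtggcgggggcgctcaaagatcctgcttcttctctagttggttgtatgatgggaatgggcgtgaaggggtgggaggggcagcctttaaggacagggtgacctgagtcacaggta
The upstream window holds CCAAT 3 times over both strands and the metal element TGCGCNC 1 time, and the other window holds none of the motifs searched.

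Clock, a core activator of the circadian clock (chr5:76209868-76304792, minus strand), gained a shorter form. Clock-201 took 24.8, 29.7, 29.4, 26.6 and 26.9% of the gene's reads on the ketogenic diet and under 0.001, 1.59, 2.60, 0 and 3.94% on chow (share adjusted p = 0.000188, diffSpliceDGE), with 19.7 ± 5.22% on the high-fat diet. It was called in all 16 alternatives. Clock-201 ends 2309 bases before Clock-205, the main form, and both have a coding sequence of 2565 bases. The gene's total differed by 0.19 ± 0.07 (adjusted p = 0.0382, 0.0186 to 0.2 over the alternatives). Il6st, chosen after its values were seen, encodes the shared receptor chain of the interleukin 6 family, and Il6st-201, whose end lies 3226 bases from that of Il6st-203, took 16.9 ± 3.21% against 5.40 ± 1.57% (SD, n = 5; share adjusted p = 4.93e-05). Il6st was called in all 16 alternatives and its total rose by 0.44 ± 0.09 (adjusted p = 0.000708).

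In Ndufv1 and Ubp1 the forms differ in a coding exon, and the totals did not pass (adjusted p = 0.214 and 0.242). Ndufv1 encodes a core subunit of respiratory complex I (chr19:4007384-4012806). Ndufv1-207, which lacks an exon of 83 bases, took 0.113, 0.00372, 0.0873, 0.515 and 0.464% of the gene's reads on the ketogenic diet and 14.1, 20.8, 11.0, 15.0 and 30.8% on chow (share adjusted p = 2.01e-10, diffSpliceDGE), with 12.9 ± 6.44% on the high-fat diet. It was called in 15 of 16 alternatives, not where a mean share of 10% was required. Ubp1 encodes a transcription factor of the grainyhead family (chr9:113930934-113977202). Ubp1-202, which includes an exon of 108 bases, took 0.03, 0.00145, under 0.001, 4.48 and 9.48% against 24.9, 13.5, 14.2, 22.5 and 20.7% (share adjusted p = 0.0176), with 13.1 ± 3.52% on the high-fat diet, and was called in 9 of 16 alternatives. These low ketogenic shares are near 0 in 5 libraries for Ndufv1 and in 3 for Ubp1. The exons are shown in capitals with 20 bases of the neighbouring exons on each side (Ndufv1, chr19:4011346-4011428, minus strand; Ubp1, chr9:113959376-113959483, plus strand; GRCm38).
Ndufv1-201 exon: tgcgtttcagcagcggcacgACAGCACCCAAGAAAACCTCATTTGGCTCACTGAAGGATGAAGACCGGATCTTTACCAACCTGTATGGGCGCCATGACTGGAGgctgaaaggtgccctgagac
Ubp1-202 exon: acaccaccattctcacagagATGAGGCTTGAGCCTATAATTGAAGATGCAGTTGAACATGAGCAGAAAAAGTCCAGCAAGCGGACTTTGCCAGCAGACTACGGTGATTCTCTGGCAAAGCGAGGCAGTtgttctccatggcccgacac
The Ubp1 exon is a multiple of 3 bases long and the Ndufv1 exon is not, and the coding sequences are 1620 bases in Ubp1-202 against 1512 in Ubp1-201.

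The largest shift outside the urinary proteins was in Erbb2, a growth factor receptor gene. Its noncoding Erbb2-202 took 11.8, 71.5, 45.4, 77.4 and 27.0% of the gene's reads on the ketogenic diet and 0, 0, 6.22, 0 and 0% on chow (share adjusted p = 0.0297, diffSpliceDGE). On the high-fat diet Erbb2-202 took 0, 61.2, 16.6, 35.8 and 100%. The ketogenic and the high-fat values were far apart, and the share was called in only 5 of 16 alternatives. In Arhgap5, the form Arhgap5-201 took 22.9 ± 1.41% against 7.005 ± 5.59% (SD, n = 5; share adjusted p = 0.0211), called in 11 of 16 alternatives.

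The shifts that follow were chosen after their values were seen. Supt6-202, a retained-intron form of a transcription elongation factor gene, took 7.65 ± 2.83% against 22.5 ± 4.00%, and Aplp2-207, of a relative of the amyloid precursor gene, took 5.61 ± 3.77% against 18.5 ± 4.24% (SD, n = 5; share adjusted p = 0.00275 and 2.78e-05, diffSpliceDGE). Hook1-211, of a gene for a dynein adaptor, took 15.3 ± 3.92% against 30.8 ± 4.64% (share adjusted p = 0.00397). In Trf, which encodes the iron carrier transferrin, Trf-203, whose end lies 4794 bases from that of Trf-201, took 23.0 ± 2.50% against 7.23 ± 4.45% (share adjusted p = 0.000718). Of a list of 80 genes with known alternative forms 57 could be tested, and Clock and Fn1 were called. Fn1-202, a retained-intron form of the fibronectin gene, took 20.9 ± 5.11% against 35.6 ± 5.18% (share adjusted p = 0.0074). Supt6-202, Aplp2-207, Hook1-211 and Fn1-202 all start after the first 30% of their gene, the kind of transcript whose mean share moved with diet. Supt6, Aplp2 and Trf were each called in 15 of 16 alternatives, Hook1 in 14 and Fn1 in 12.

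**Figure D4:**
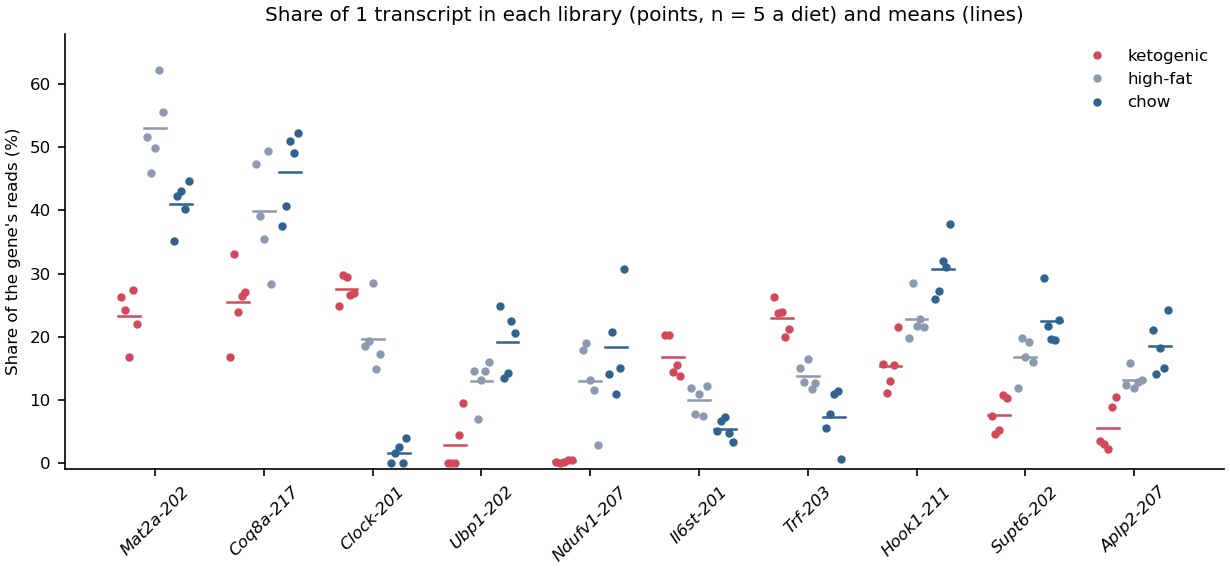
Share of 1 transcript in the reads of its gene (%) in each library, ketogenic (red), high-fat (grey) and chow (blue), with means as lines. Mat2a-202 is lowest on the ketogenic diet (16.8 to 27.4%) and highest on the high-fat diet, and Clock-201 is near 0 on chow but not on the other diets.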

How the data were processed

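Per the submitters' processing notes, the tools were Trimmomatic 0.36, kallisto 0.44 and edgeR 3.28, with build GRCm38.p6. Per the file headers, each deposited table holds estimated counts, TPM and effective lengths per transcript, and the TPM values deposited by the authors were not used. Estimated counts were summed per gene (GENCODE M21; 598 of 106332 transcripts had no match) and rounded. Genes were tested with edgeR 4.0.16 (quasi-likelihood, TMM, robust, all 15 libraries in 1 fit, R 4.3.3, Benjamini-Hochberg adjusted p under 0.05) and transcript shares with its diffSpliceDGE. The alternatives used DESeq2 1.42.0, limma 3.58.1, other scaling, filters, a length offset and each library left out. On simulated data 74% of 1.5-fold changes and 100% of 2-fold rises were recovered with 12 false calls among 13817 genes, and 142 of 145 share changes with 1 false call. The simulated share changes were all larger than the 10 percentage points that a call needs. Each simulation used 1 fixed spread for all genes and held no read assignment error or length trend, so these rates need not hold for the real data. Members and lists were chosen with earlier results of these data known. Named genes were the 8 largest gains and losses in CPM, the 14 largest rises and falls in fold at 5 CPM or more (predicted, mitochondrial and pseudogenes left out, no overlap), of each list up to 3 called members with the smallest p and up to 4 against its majority, and the 12 largest share changes; others are said to be chosen after their values were seen. The tables of the ketogenic libraries and of 1 high-fat library end lines differently from the other 9, so the deposited files were not all written alike; no label says whether the libraries were made apart, and a processing batch and the diet cannot be told apart.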

Additional observations from a re-analysis of the deposited data

Results flagged for a closer look

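In groups of 5 libraries, a library stood apart where its gap to the nearest other exceeded 0.71 of the group's range (Dixon). This was met in 12 of 156 groups tested, and chance gives about 1 in 20. Among levels, Apoa4 was at 214.7 CPM in chow replicate 15 (others 108.8 to 126.7), and Cyp2c69 at 1.511 CPM in ketogenic replicate 2 (others 0.1391 to 0.4849). Fabp5 was at 5.238 CPM in ketogenic replicate 4 (others 3.563 to 4.007), and Gstm3 at 14.3 CPM in ketogenic replicate 8 (others 3.834 to 5.194). Mat1a was at 1147 CPM in chow replicate 19 (others 1705 to 1913), Mup2 at 171.8 CPM in ketogenic replicate 6 (others 29.49 to 59.88) and Selenop at 4576 CPM in chow replicate 18 (others 5114 to 5320). Among transcript shares, Erbb2-202 took 6.22% of its gene's reads in chow replicate 17, Ccdc77-204 0.1819% in ketogenic replicate 3 and Golga1-210 0.8771% in chow replicate 19, each with 0% in the others of that diet. Mup8-201 took 2.743% in ketogenic replicate 4 and under 0.001% in the others. Cul4a-204 took 26.23% in chow replicate 19 (others 17.72 to 20.03%).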

How the results depend on the processing

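No paired analysis was possible because the replicate numbers of the labels are not shared between diets. Of 3322 recomputed values of the 208 named genes, 3229 kept their direction and side of the threshold, 93 in 18 genes no longer passed and 0 reversed. These genes were chosen among called genes, mostly for large changes or small p without overlap, so this stability follows in part from the choice. Of all 4296 genes called, 4271 were also called with DESeq2, 3516 with total-count scaling and 3529 to 3819 with 1 library left out. With scaling by total count, 1265 genes fell in place of 2038, and 960 in place of 1818 were lower than on the high-fat diet; rises then made up 68.5% of calls against chow and 70.6% against the high-fat diet. Leaving out 1 library gave 1950 to 2178 rises and 1652 to 1896 falls. Transcript share calls, 38 genes, were 76 by adjusted p alone, 183 with limma voom, 23 with a mean share of at least 10% and 16 with early protein-coding transcripts only, and 23 to 45 with 1 library left out (23 without ketogenic replicate 2 and 24 without ketogenic replicate 3). The settings of mean share and of early protein-coding transcripts test fewer genes, and the cause of the other changes was not tested. Of genes under 1 CPM few were called (2.04% rose and 7.89% fell), and the part of sequencing depth in this was not tested.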
